A study of Oncorhynchus mykiss with 60 samples.

Results

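Sections B and C are neighbouring slices of the rainbow trout (Oncorhynchus mykiss) egg at 0 hours post fertilization (0 hpf), B on the animal side of the middle slice C. The comparison used 3 libraries of section B and 3 of section C, which are 6 of the 55 libraries in the count table, paired by their replicate number. Below, each egg means the sectioned sample of a replicate number, whether that held a single egg or several. The series cut eggs and embryos of 4 stages into 5 sections along the animal to vegetal axis, lettered A to E from the animal end, and sequenced each section as its own library. All 6 libraries came from sections cut from whole eggs without a stated strain, treatment or parent. Each was made from 30 ng of total RNA after depletion of ribosomal RNA. The labels name the 0 hpf group both as a non-fertilized egg and as a fertilized one, so it is called by its time here. The labels call the replicates biological. They do not say whether the eggs came from different females, so part of the spread may be technical. The fit takes out differences between replicates that all sections share. The p-values therefore reflect the spread that is left among the sections fitted, not how far the replicates differ.

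In a fish egg the cytoplasm gathers at the animal pole as the disc from which the embryo forms, while the yolk fills most of the rest. Some maternal RNAs are held at the vegetal pole during oogenesis, among them RNAs of the germ plasm, which sets aside the germ cells, and RNAs needed to form the dorsal side of the embryo. Because equal masses of RNA went into every library, a level here is a gene's share of the counted reads in its section. A gene can therefore be higher in a section through more of its RNA or through less of other RNA, and these cannot be told apart.

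The 6 libraries held 2.34 to 11.2 M counts, with 22224 to 22881 genes at 1 count or more, and 3 counts corresponded to 0.268 to 1.283 CPM (counts per 1 M counts of a library). Levels below are CPM with TMM scaling, which corrects for differences in composition between libraries. The lowest totals were those of replicate 2 (2.34 M in B and 2.92 M in C). No gene took more than 0.142% of a library. The fixed egg and oocyte markers, 16 genes such as zar1, gdf9 and the egg coat gene zp3b, were present in every library, with a summed level of 1842.04 to 1994.23 CPM in B and 2337.25 to 2410.95 CPM in C. Of these 16 genes 7 were higher in C by edgeR's quasi-likelihood test and 0 higher in B, against 6.06% and 3.87% of all genes tested. Both copies of dazl, the copy with the trout symbol buc, and ddx4 are among the 7 and are given again below with the germ plasm genes. Of the 7 calls 1 held without replicate 1 and 1 without replicate 3. The follicle cell and immune cell marker lists matched no gene analysed here. The blood markers (2 copies of epb41b) summed to 8.37 to 11.743 CPM in B and 4.271 to 8.163 in C, and the liver marker tfa was at 4.393 to 11.16 CPM in B and 8.354 to 10.989 in C. The 4 sperm and testis markers summed to 6.221 to 6.377 CPM in B and 2.628 to 6.31 in C. None of these markers of other tissues was at 0 in all 6 libraries, their part in the results was not tested, and none of those with enough counts passed the test between B and C.

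Section B differed from section C in 2163 of 21799 genes tested (9.92%), with 843 genes higher in B (3.87%) and 1320 higher in C (6.06%), by edgeR's quasi-likelihood test at an adjusted p below 0.05. The genes higher in B had a median log2 difference of 0.65 and those higher in C of -0.77, while the median of all genes tested was 0.012. A difference of at least 2-fold was reached by 114 genes higher in B (0.523%) and by 394 higher in C (1.81%). In 2124 of the 2163 genes the direction was the same in all 3 pairs. The call depends on comparing B and C within a pair. Across genes, the deviations of the B and C libraries of the same egg from their group means correlated at 0.67, 0.81 and 0.67. They also correlated at 0.51 for B of replicate 1 with C of replicate 3, and at 0.55 for B of replicate 3 with C of replicate 1. The correlations thus told replicates 1 and 3 apart only weakly. Without the replicate block edgeR called 0 genes (2652 at an unadjusted p below 0.05). The call also depends on replicates 1 and 3. Without replicate 1, 520 genes passed and without replicate 3, 123, against 2098 without replicate 2. Of the 123 only 5 were higher in B.

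The 3 eggs were set along the axis by genes that differed between A and E. These were 995 genes at least 4-fold higher in A and 1015 genes at least 4-fold higher in E. All were chosen by the test of A against E, in the fit of all 15 libraries of 0 hpf. The log2 ratio of the summed levels of these animal and vegetal genes was 1.01, -0.2 and 1.51 in the B libraries of replicates 1, 2 and 3. In the C libraries it was -0.68, -1.38 and -0.52. Section B was thus above section C in each egg, by 1.69, 1.18 and 2.03 (mean 1.63, SD 0.43, n = 3). An exact paired permutation test over the 3 pairs gave p = 0.25 (two-sided), which is the smallest value 3 pairs allow. The groups did not overlap, but both sections of replicate 2 lay further toward the vegetal side than those of the other eggs, and section B of replicate 2 lay nearer to the C libraries of replicates 1 and 3 than to their B libraries.

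**Figure D1:**
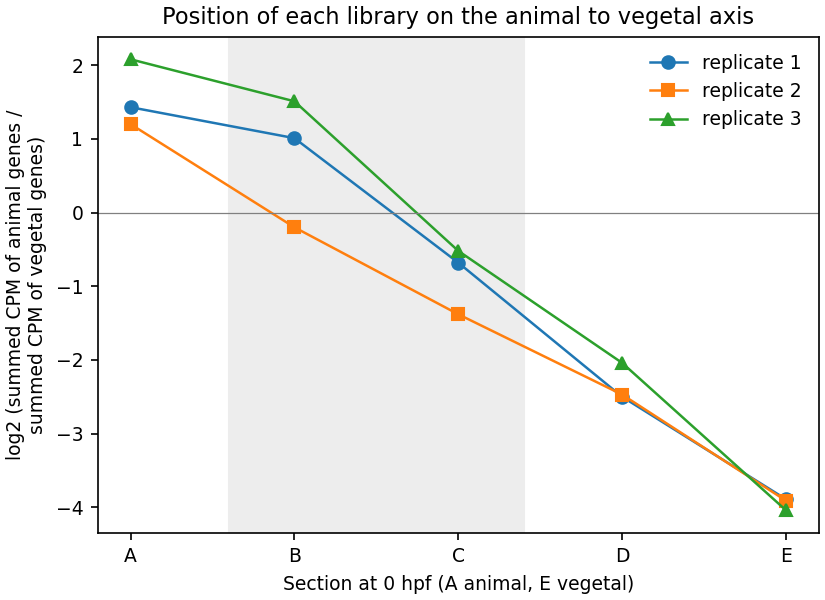
Log2 ratio of the summed CPM of 995 animal genes to that of 1015 vegetal genes (y axis) in each of 15 libraries at 0 hpf, by section from A to E (x axis), with 1 line per replicate and sections B and C shaded. Every line falls from A to E, and section B of replicate 2 lies at -0.2 while the other B libraries lie at 1.01 and 1.51. The fall between the ends A and E follows from the choice of genes.

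Between B and C, the directions followed those between the poles. Sections A and E, whose libraries are other sections of the same eggs, differed in 13946 of 21799 genes (64%), 6965 higher in A (32%) and 6981 higher in E (32%). Of the 843 genes higher in B, 839 were higher in A than in E, 0 were higher in E and 4 did not pass. Of the 1320 genes higher in C, 1312 were higher in E, 0 were higher in A and 8 did not pass. Seen from the poles, the 839 genes were 12% of the genes higher in A, and the 1312 were 18.8% of those higher in E. The step from B to C was the largest of the 4 adjacent steps for 1346 of the genes higher in A (19.3%) and for 2313 of those higher in E (33.1%). The step from D to E was the largest most often, for 3720 (53.4%) and 2896 (41.5%), that from C to D for 1771 (25.4%) and 1449 (20.8%), and that from A to B for 128 (1.84%) and 323 (4.63%). The A and E libraries, whose difference chose these genes, also enter the steps from A to B and from D to E. The 4 steps are therefore not on an equal footing.

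**Figure D2:**
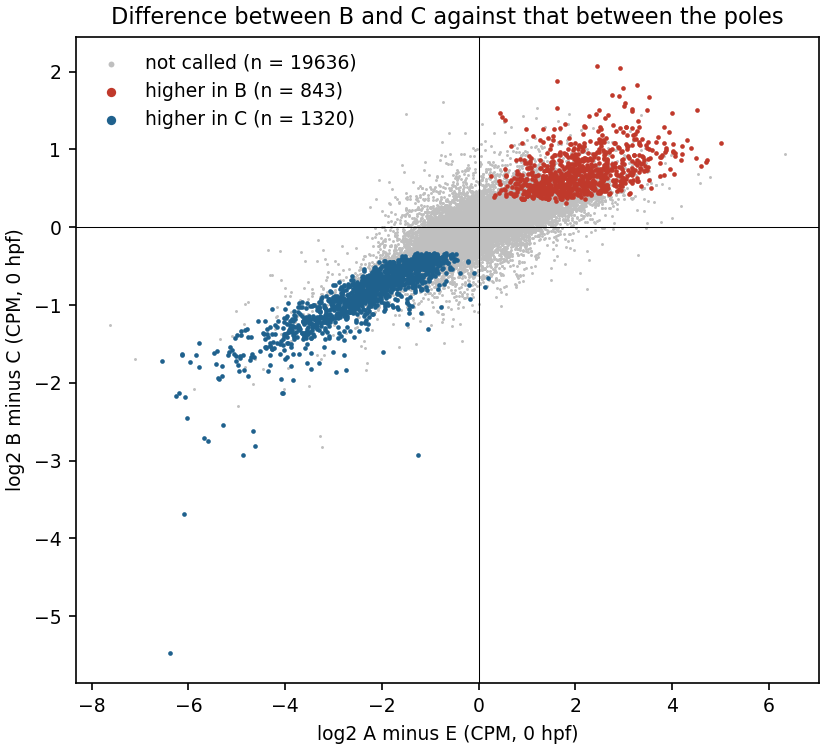
Log2 difference of B minus C (y axis) against log2 difference of A minus E (x axis) at 0 hpf for 21799 genes, with the 843 genes higher in B in red, the 1320 higher in C in blue and the rest in grey. Nearly all red points lie to the right of 0 and nearly all blue points to the left.

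The spread of the log2 differences over genes was 0.24 (SD) from A to B, 0.41 from B to C, 0.41 from C to D and 0.47 from D to E. Between A and B edgeR called 0 genes (1041 at an unadjusted p below 0.05, 191 called by DESeq2), between C and D 1994 (9.15%) and between D and E 3505 (16.1%). Whether the step from B to C differs from its neighbours was tested directly in each gene. Against the step from C to D, edgeR called 0 genes (451 at an unadjusted p below 0.05) and DESeq2 called 0 (297). Against the step from A to B, edgeR called 0 (779) and DESeq2 called 0 (536), so no single gene was shown to step more between B and C than between the neighbouring sections.

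The 12 genes that differed between B and C without passing between the poles are named here, and were chosen after their values were seen. Not passing between A and E does not make their direction differ from that between the poles. Only hspa13 (log2 A minus E 0.13) and ciao2b (0.18) had the other sign there. The rest had the same sign in both comparisons, LOC110501665 close to the threshold (log2 A minus E -0.39, adjusted p = 0.0667 by edgeR's test). The deubiquitinase usp13 stood at 7.35, 3.59 and 7.84 CPM in B and at 2.76, 1.31 and 2.67 in C, against means of 5.63 in A and 4.19 in E. B was above C in every pair for usp13 (log2 1.46, SE 0.32, adjusted p = 0.0085). The glycogen targeting gene ppp1r3ab (1.39) and the unnamed LOC110520507 (1.42) and LOC110485353 (0.65) were the other genes higher in B. Higher in C were hspa13, an Hsp70 family member of the microsomes (-0.77), shisa10.1 (-0.74), the iron-sulfur assembly gene ciao2b (-0.65), the nucleoporin nup42 (-0.59), scyl2 (-0.44), zgc:77262 (-0.44) and the unnamed LOC118946725 (-0.92, or -0.57 without replicate 3) and LOC110501665 (-0.59). The ppp1r3ab gene held only 56 counts in B and 22 in C, with no count in C of replicate 2. In LOC110485353 and nup42, replicate 2 had the other order. Of these 12 calls, 1 held without replicate 1, 6 without replicate 2 and 0 without replicate 3. With DESeq2 8 held, 1 of them higher in B.

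Among named genes with a mean of at least 5 CPM in B and B above C in all 3 pairs, mcf2la had the largest excess in B with its copy LOC110527347, at 105, 24.7 and 98.9 CPM in B and 32.8, 14.8 and 22.0 CPM in C of replicates 1 to 3 (log2 1.69, SE 0.33, adjusted p = 0.00411). Its other called copy, LOC110495681, had a log2 of 1.45 (SE 0.26). The B library of replicate 2 lay below C of replicate 1 in both of these copies, so the groups overlapped although each pair had B above C. The inositol trisphosphate receptor itpr2, which releases calcium from stores, was at 186, 58.2 and 207 CPM in B and 55.9, 36.5 and 51.5 in C (1.60, SE 0.27, adjusted p = 0.00161). Its groups did not overlap, with 58.2 CPM in B of replicate 2 close to the 55.9 CPM in C of replicate 1. The gene stard13b was at 59.1, 1.99 and 72.2 CPM in B and at 29.2, 0 and 17.4 in C (1.48, SE 0.29, adjusted p = 0.00474). In stard13b replicate 2 was far below the other eggs in both sections, and C of replicate 2 held no count.

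The microtubule-associated gene ccser2b was at 13.5, 31.1 and 13.3 CPM in B against 5.24, 9.53 and 2.98 in C (1.67, SE 0.28, adjusted p = 0.00176). Here replicate 2 was the highest egg, and the groups did not overlap. The cullin adaptor kctd10 (1.52, SE 0.25), the heat shock factor hsf4 (1.51, SE 0.26), the very large adhesion receptor adgrv1 (1.51, SE 0.21), the syntaxin-binding txlng (1.49, SE 0.29) and usp13 (1.46) made up the rest of the first 10. All but usp13 had mean levels that were lowest in D or E. B of replicate 2 lay below C of replicate 1 in kctd10 (8.37 against 18.5 CPM), hsf4 (3.99 against 4.89) and txlng (23.9 against 31.2). The groups of these genes thus overlapped, while those of adgrv1 and usp13 did not. Of the 10, 7 passed without replicate 1, 10 without replicate 2 and 1 (adgrv1) without replicate 3, where their log2 differences lay between 1.08 and 1.5. DESeq2 called 7 of the 10, missed stard13b (adjusted p = 0.103) and gave hsf4 and usp13 no adjusted p.

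The named genes with the largest excess in C, chosen by the same rule with C above B in all 3 pairs, had higher means still in D and E. The gene hwa encodes Huluwa, the maternal membrane protein that zebrafish need for the dorsal organizer. It was at 2.96, 3.59 and 2.57 CPM in B and 19.2, 10.8 and 7.38 in C, and its mean was 1.6 CPM in A, 36.6 in D and 117 in E. The groups did not overlap for hwa (log2 -2.18, SE 0.34, adjusted p = 0.00116), and the value was -1.59 without replicate 1. The calcium channel regulator cracr2b was at 1.34, 3.19 and 1.35 CPM in B and 8.53, 9.53 and 4.40 in C (-2.18, SE 0.49, adjusted p = 0.0103). The phosphatase gene dusp8a was at 2.06, 0.399 and 2.57 CPM in B and 11.5, 2.96 and 7.54 in C (-2.13, SE 0.29, adjusted p = 0.000481). Neither gene overlapped between the groups. In dusp8a, B of replicate 2 lay below the level of 3 counts in that library, which is 1.283 CPM before TMM scaling.

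The lysosomal transcription factor gene tfeb was at 23.9, 31.5 and 11.6 CPM in B and at 112, 77.5 and 53.8 in C (-1.95, SE 0.22, adjusted p = 0.000192). The depalmitoylase gene abhd17aa was at 22.8, 23.1 and 12.3 CPM in B and 101, 77.2 and 41.3 in C (-1.91, SE 0.20), and the kinesin adaptor kifap3a at 5.92, 5.98 and 3.79 against 23.4, 17.4 and 15.4 (-1.91, SE 0.23). In these 3 genes the lowest C library lay well above the highest B library. The others were nat8l, which makes N-acetylaspartate (-1.97), si:ch211-203d1.3 (-1.93), a retinoic acid receptor copy named raraa/rarab (-1.85) and the ubiquitin ligase hecw2a (-1.84). The groups of nat8l overlapped through replicate 2, at 1.34, 4.38 and 0.406 CPM in B and 3.55, 19.1 and 3.45 in C. It held only 29 counts in B. The si:ch211-203d1.3 gene was at 39.1, 127 and 35.6 CPM in B and 294, 280 and 139 in C, where B of replicate 2 came close to C of replicate 3. Of the 10 genes, 10 passed without replicate 1, 10 without replicate 2 and 7 without replicate 3, which left out cracr2b, si:ch211-203d1.3 and raraa/rarab.

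**Figure D3:**
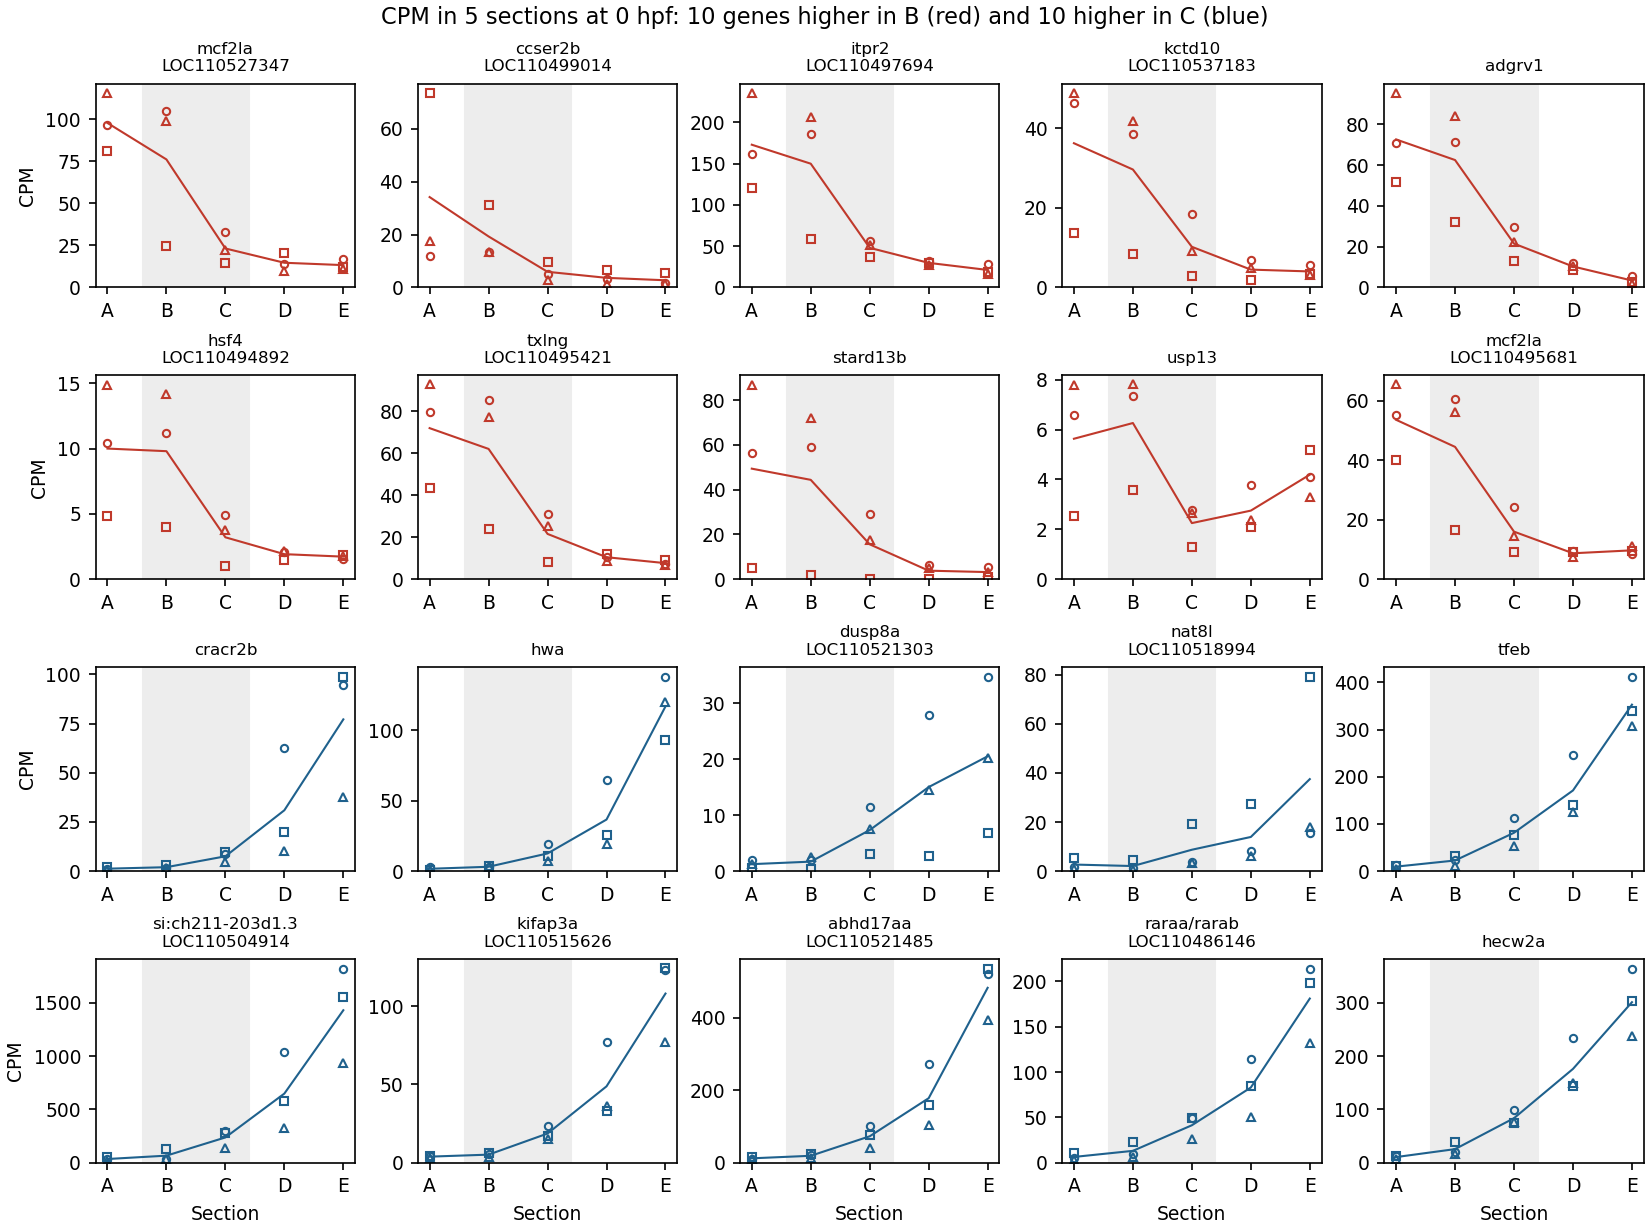
CPM (y axis, from 0) in sections A to E at 0 hpf (x axis) for the 10 named genes with the largest excess in B (red) and in C (blue). Open circles, squares and triangles are replicates 1, 2 and 3, lines join the means, and B and C are shaded; red genes drop between B and C, as in itpr2 from 186, 58.2 and 207 to 55.9, 36.5 and 51.5 CPM, and blue genes climb on to E.

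By mean level in B the most abundant transcripts were si:ch211-241j12.3, the spindle gene aspm, the DNA methyltransferase gene dnmt3bb.2, LOC110533336 and the kinase gene pask, and of these aspm alone passed the test. It was at 848, 429 and 918 CPM in B and 526, 290 and 410 in C (log2 0.83, SE 0.22, adjusted p = 0.0227), with B above C in every pair. The gene dnmt3bb.2 was at 763, 709 and 683 CPM in B and 799, 693 and 742 in C, and the difference of -0.05 (SE 0.11) did not pass (adjusted p = 0.827). By mean level in C the highest were trip6, kiaa0232, the RNA-binding gene raver1, dnmt3bb.2 and a copy of the non-muscle myosin gene myh9a (LOC110485098), and all but dnmt3bb.2 passed, raver1 at -1.21, myh9a at -1.43 and kiaa0232 at -0.51. The LIM domain gene trip6 was at 244, 715 and 242 CPM in B and at 997, 1360 and 768 in C (-1.48, SE 0.21, adjusted p = 0.000686). In trip6 replicate 2 was high in B as well, just below the lowest C library.

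Of 35 germ plasm genes tested, 15 were higher in C and 3 higher in B, and the median log2 difference was -0.23. This list, like the others, was chosen with earlier results of these data known. Over all genes tested, 6.06% were higher in C and 3.87% higher in B. The gene dazl, for a translation regulator of germ cells, was at 30.6, 58.2 and 25.3 CPM in B and 100, 121 and 90.7 in C (-1.54, SE 0.24, adjusted p = 0.000976). The gene with the trout symbol buc, whose protein Bucky ball organizes the germ plasm in zebrafish, was at 391, 487 and 323 CPM in B and 604, 615 and 602 in C (-0.61, SE 0.13, adjusted p = 0.0067). In both genes all C libraries lay above all B libraries. Other copies named buc were tested, and their values are not given here. The other called copy of dazl, LOC110487980, was at 21.9, 70.9 and 23.5 CPM in B and 40.4, 105 and 40 in C (-0.74, SE 0.14), and its groups overlapped through replicate 2. The helicase gene ddx4, also called vasa, differed less (-0.43, SE 0.09, adjusted p = 0.0078). Both copies of dazap2 (-1.56 and -0.92) and of celf1 (-1.28 and -1.05), as well as gra (-1.34), hook2 (-1.03 and -0.55), rbpms2a (-0.85) and rgs14a (-0.47), were also higher in C. The 3 genes higher in B were the tudor domain genes tdrd6 (0.88) and tdrd15 (0.79) and mov10l1 (0.66), a helicase of the piRNA pathway that silences transposons. The primordial germ cell genes nanos3 (-0.28, adjusted p = 0.242) and dnd1 (-0.14, adjusted p = 0.445) and the piRNA effector piwil1 (-0.09, adjusted p = 0.604) did not pass. Without replicate 1, 7 of the 18 calls held, and without replicate 3, 4, all higher in C.

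The list of vegetal and dorsal determinants was put together partly from genes seen to be vegetal in these samples, so its direction is not independent evidence. Of its 42 genes tested, 15 were higher in C, 2 were higher in B, and the median was -0.18. Called were 40.5% of the list, against 9.92% of all genes tested. Besides hwa and its copy (-1.63), the histone mRNA-binding slbp2 was at 85.7, 124 and 37.1 CPM in B and 319, 292 and 174 in C (-1.76, SE 0.24, adjusted p = 0.000487). The copies of sybu, whose zebrafish product carries the dorsal determinant along microtubules, were at -1.67 and -1.41, those of the ubiquitin ligase trim36 at -1.73 and -1.42, and those named grip2a/grip2b and grip2b at -1.64 and -1.36. For slbp2, as for both sybu copies, the groups did not overlap. The 2 genes higher in B were kinesin-1 heavy chains, kif5bb (0.95) and a copy named kif5ba/kif5bb (0.50). The Wnt ligand gene wnt8a was at -1.12 with an adjusted p of 0.108, and the beta-catenin copies of ctnnb1 at -0.21 and -0.04 (adjusted p = 0.263 and 0.886). Of the 17 calls 11 held without replicate 1 and 7 without replicate 3.

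Signalling genes of the Wnt, Nodal, BMP and FGF pathways went both ways, with 6 of 94 higher in B, 10 higher in C and a median of -0.03. Called were 17% of the list, against 9.92% of all genes tested. Higher in C were both copies of wls, which brings Wnt proteins to the cell surface (-1.37 and -0.72), both of the beta-catenin scaffold axin1 (-1.29 and -1.18), the nuclear Wnt factor lef1 (-1.84) and the ligand wnt5a (-1.18). The wls gene was at 21.1, 39.1 and 12.2 CPM in B and 54.8, 85.1 and 37.5 in C (SE 0.16, adjusted p = 0.000192). The highest B library of wls overlapped with the lowest C library, but C was above B by more than 2-fold in each egg. Higher in B were the FGF receptor fgfr4 (1.28), the frizzled receptor copies of fzd7a (1.10) and fzd7a/fzd7b (0.94), bmp1a (0.70), tgfbr2b (0.60) and the scaffold apc (0.50). Of the 16 calls 5 held without replicate 1 and 3 without replicate 3.

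Of the 24 lists, that of very large proteins and ubiquitin ligases held the most members higher in B. Of its 120 genes tested, 54 were higher in B, 2 were higher in C and the median was 0.63. Called were 46.7% of the list, against 9.92% of all genes tested. This list too was drawn up with earlier results of these samples known. The largest value among the tested members, called or not, was that of the beta-spectrin gene sptbn5 (1.83). It is not among the 10 largest named differences above, so it missed a condition there on level, pairs or adjusted p. Next came adgrv1, the cytoskeletal linker dst (1.24), the histone methyltransferases kmt2ca (1.24) and kmt2cb (1.22) and the dynein heavy chain dync2h1 (1.19). The ubiquitin ligase genes herc2 (1.07), huwe1 (0.87) and ubr4 (0.79) were also higher in B. The kinase gene atm, which responds to DNA breaks, was at 110, 59 and 112 CPM in B and 54.7, 34.2 and 50.1 in C (1.01, SE 0.17, adjusted p = 0.00168). All 3 B libraries of atm lay above all C libraries. The 2 genes higher in C were the chromatin remodeller ino80 (-1.62) and a copy of the deubiquitinase usp24 (-1.17), whose other copy was higher in B (0.75). Whether the length of the transcripts moved with the difference was not tested, as no gene models were at hand. Of the 56 calls, 24 held without replicate 1, 37 without replicate 2 and 1 without replicate 3.

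Lists of protein synthesis and turnover had positive medians, with shares of called genes on both sides of the 9.92% of all genes tested. The share was 16.7% for aminoacyl tRNA synthetases, 13.5% for ribosome assembly and 12.4% for translation factors. It was 8.2% for the proteasome and 1.36% and 1.49% for cytosolic and mitochondrial ribosomal proteins. Of 42 aminoacyl tRNA synthetases, 7 were higher in B and 0 higher in C (median 0.22), with aars1 at 0.75, iars1 at 0.74 and eprs1 LOC110506264 at 0.74. Of 74 ribosome assembly genes, 9 were higher in B and 1, npm1a (-0.39), higher in C (median 0.16). The assembly ATPase gene mdn1 LOC110522101 was at 215, 68.6 and 221 CPM in B and 111, 45.7 and 82.3 in C (1.04, SE 0.24, adjusted p = 0.0119), and its groups overlapped through replicate 2. Of 97 translation factors, 9 were higher in B and 3 higher in C (median 0.22). Of 61 proteasome genes, 5 were higher in B and 0 in C (median 0.24), among them psmd2 (0.55) and both copies of the activator psme4b (0.76 and 0.53). Of 147 cytosolic ribosomal protein genes 1 was higher in B (rpl5b, 0.41) and 1 higher in C (rs13, -0.78), with a median of 0.18, and of 67 mitochondrial ribosomal protein genes 0 were higher in B and 1 in C (mrpl51, -0.78; median 0.12). With library sizes in place of TMM scaling, rpl5b was not called. Differences between these lists were not tested. Without replicate 3, 0 of the 37 calls of these 6 lists held, and without replicate 1, 7.

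Chaperone genes were called in both directions. Of 54 cytosolic chaperone genes, 10 were higher in B and 2 in C (median 0.32). The Hsp90 gene hsp90bb was at 144, 93.3 and 155 CPM in B and 100, 58.8 and 85.6 in C (0.68, SE 0.12, adjusted p = 0.00293), and hspa8 LOC100135842, a constitutive Hsp70, was at 0.55 (SE 0.11). The 2 higher in C were bag4 (-0.87) and dnaja1 (-0.54). Of 104 genes of the endoplasmic reticulum and secretory pathway, 20 were higher in C and 4 in B (median -0.06). Called were 22.2% of the cytosolic list and 23.1% of the reticulum list, against 9.92% of all genes tested. The reticulum's Hsp70, hspa5, was at 114, 178 and 113 CPM in B and 197, 250 and 191 in C (-0.67, SE 0.12, adjusted p = 0.00227). The lectin lman2 (-1.38 and -0.72), the oligosaccharyltransferase gene ddost (-0.89 and -0.85), grp94 (-0.71) and canx (-0.67) were also higher in C. The 4 higher in B were the coat genes copa (0.41), copb1 (0.36) and sec31a (0.80) and the signal recognition gene srp19 (0.96). In hspa5 all C libraries lay above all B libraries, while in hsp90bb C of replicate 1 lay above B of replicate 2. Without replicate 1, 4 of the 12 cytosolic calls and 4 of the 24 reticulum calls held, and without replicate 3, 0 and 3. The difference between the 2 lists was not tested.

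**Figure D4:**
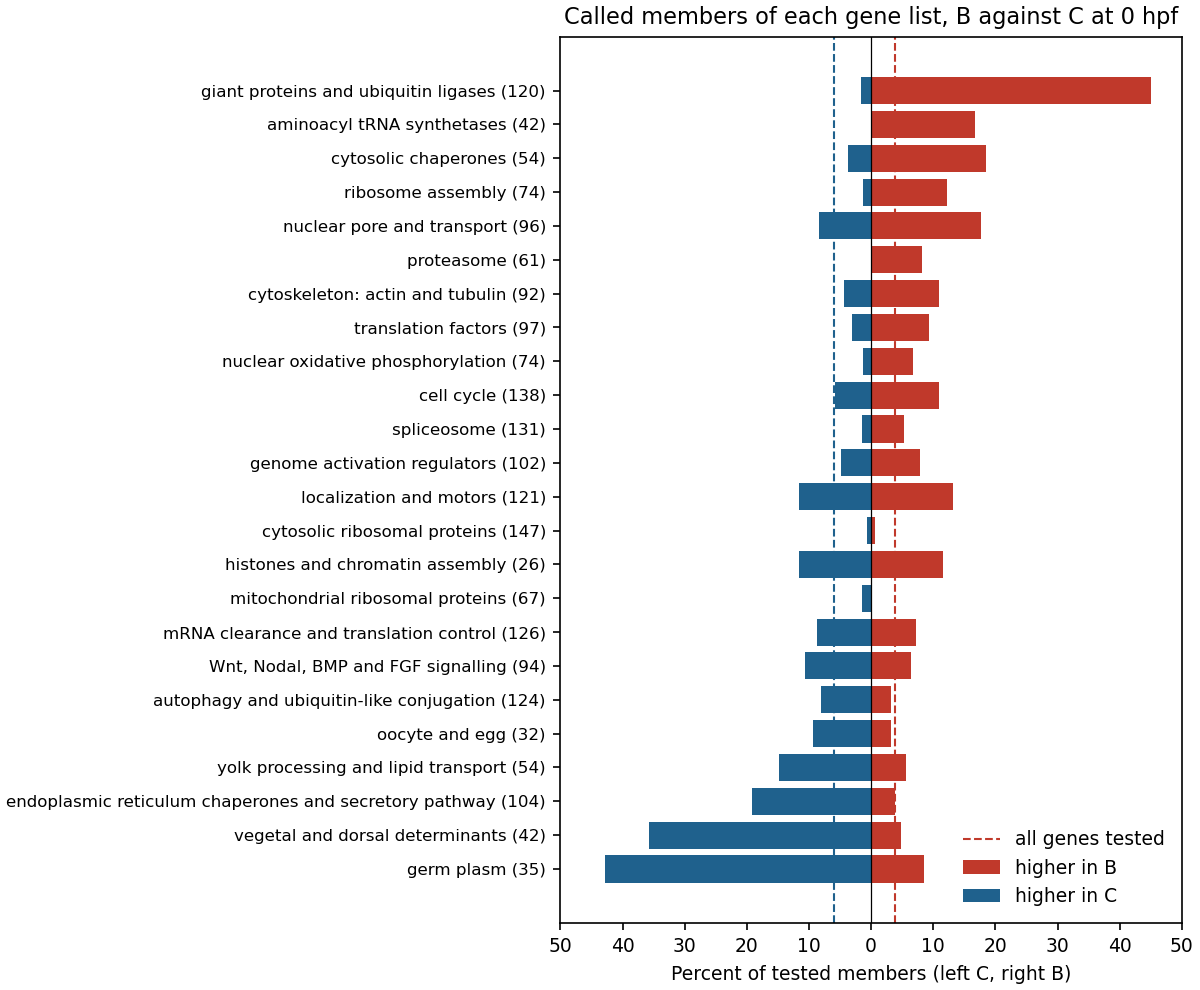
Percent of the tested members of each of 24 lists, markers aside (number in brackets), that were higher in B (red, to the right) or higher in C (blue, to the left) at 0 hpf; dashed lines mark the shares over all genes tested, 3.87% and 6.06%. The list of very large proteins reaches furthest to the right (54 of 120), and the germ plasm list furthest to the left (15 of 35).

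Motor and localization genes were called in both directions, 16 of 121 higher in B and 14 higher in C (median 0.12). Called were 24.8% of the list, against 9.92% of all genes tested. Dynein heavy chain dync1h1 (1.12) and the mitotic kinesins kif20bb (0.52) and kif22 (0.61) were higher in B, while the hook adaptors hook1 (-0.81) and hook2, the microtubule-binding map1sa (-1.18) and myo5b (-0.99) were higher in C. The unconventional myosin copy myo18ab LOC110537246 had the smallest adjusted p of all genes (2.91e-05) with a log2 of -1.78 (SE 0.14). It was at 151, 2.79 and 75.1 CPM in B and at 495, 6.24 and 277 in C. C was above B in every egg of myo18ab, and replicate 2 was far below the others in both sections. Of 138 cell cycle genes, 15 were higher in B and 8 in C (median 0.12), which is 16.7% called. The centromere motor cenpe (0.88), the DNA polymerase subunit pola1 (0.72) and the kinase atr (0.75) were higher in B. The cyclins ccnd2a (-1.08), ccna2 (-0.39), ccnb1 LOC100136690 (-0.35) and ccne1 (-0.38) were higher in C, although with library sizes in place of TMM scaling the count higher in C was 2 instead of 8, and that higher in B 19 instead of 15. Of the 30 motor calls 7 held without replicate 1 and 3 without replicate 3, and of the 23 cell cycle calls 2 and 0.

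Of 96 nuclear pore and transport genes tested, 17 were higher in B and 8 in C (median 0.23). Called were 26% of this list and 15.2% of the cytoskeleton list that follows, against 9.92% of all genes tested. The pore scaffold gene nup160 was at 155, 67.4 and 143 CPM in B and 89.9, 40.7 and 85.7 in C (0.75, SE 0.14, adjusted p = 0.00398), and nup98 (0.77), tprb (0.90) and the exporter xpo5 (1.05) were also higher in B. The importins kpna3 (-1.48), tnpo1 (-1.37) and kpna6 (-1.25) were higher in C, and kpna2 (0.43) and the oocyte importin kpna7 (0.46) in B. The B library of replicate 2 made the groups of nup160 overlap. Of 92 actin and tubulin cytoskeleton genes, 10 were higher in B and 4 in C (median 0.21): the actin and tubulin copies called lay between 0.46 and 0.66, while both copies of tpm3, a tropomyosin, were at -1.37 and -1.12. Of the 25 pore and transport calls 7 held without replicate 1 and 2 without replicate 3, and of the 14 cytoskeleton calls 1 and 1.

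Of 102 genome activation regulators, 8 were higher in B and 5 in C (median 0.05), with both copies of wwtr1, the Hippo pathway coactivator TAZ, at -1.24 and -1.03, sox19a at 0.83 and foxh1 at 0.73. Of 126 mRNA clearance and translation control genes, 9 were higher in B and 11 in C (median 0.1), with cnot4a at 1.28 and both copies of celf2 at -0.96 and -0.95. Of 54 genes of yolk processing and lipid transport, 3 were higher in B and 8 in C (median -0.01). The lipoprotein receptor gene vldlr, which takes up yolk precursors in oocytes, was at 260, 281 and 242 CPM in B and 397, 351 and 404 in C (-0.55, SE 0.11, adjusted p = 0.00488), with no overlap. Of 74 nuclear oxidative phosphorylation genes 5 were higher in B and 1 in C (median 0.18), of 131 spliceosome genes 7 and 2 (0.02), of 124 autophagy and ubiquitin-like conjugation genes 4 and 10 (0.07), of 26 histone and chromatin assembly genes 3 and 3 (0.2), and of 32 oocyte and egg genes 1 and 3 (0). Among these, the prpf8 copies were at 0.97 and 1.02, the uba1 copies at 1.19 and 1.29, ube2v1 at -1.52 and the oocyte growth factor bmp15 at -0.59. Over all genes tested 9.92% were called. The share was 6.87% for the spliceosome, 8.11% for oxidative phosphorylation, 11.3% for autophagy, 12.5% for oocyte and egg and 12.7% for genome activation. It was 15.9% for mRNA clearance, 20.4% for yolk processing and 23.1% for histones and chromatin assembly. Of the 83 calls of these 8 lists, a few shared between lists, 14 held without replicate 1 and 6 without replicate 3. With library sizes in place of TMM scaling the counts higher in C were 1 for the oocyte and egg list, 3 for genome activation and 1 for the spliceosome.

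Trout keep many duplicated genes from an ancient doubling of their genome, and a read that matches both may have been dropped or assigned to either, so a level given for 1 copy is uncertain. Of 2769 names shared by 2 or more genes tested, 219 had 2 or more called copies. Among these 219 names, all called copies were higher in B for 74, all were higher in C for 130, and 15 had copies called in opposite directions. In itprid2, the largest gap, LOC110504376 was at 37.5, 89.7 and 31.9 CPM in B and 176, 192 and 132 in C (-1.78, SE 0.26, adjusted p = 0.000701). The copy itprid2 was at 31.2, 49.8 and 45.4 CPM in B and 12.8, 37.1 and 22.8 in C (0.94, SE 0.27, adjusted p = 0.0358). The 2 copies thus had opposite orders in every egg. For myh9a, LOC110485098 was at 264, 322 and 209 CPM in B and 917, 631 and 639 in C (-1.43, SE 0.20), and LOC110538472 at 79.5, 72.1 and 96.8 against 44.6, 34.5 and 42.1 (1.02, SE 0.14). For ube2g1b the values were 1.32 (SE 0.31) for LOC110535903, where pair 2 had the other order, and -1.01 (SE 0.24) for LOC110525533. Without replicate 3, 3 of the 30 calls of such copies held, and without replicate 1, 9.

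The same sections were compared at 2 of the 3 later stages over all genes. In the 2 replicates at 1 hpf, 5923 of 23458 genes differed between B and C (25.2%), with 11.7% higher in B and 13.6% higher in C, in 1 fit of all 55 libraries. In the 3 replicates at 1 day post fertilization (1 dpf), 11053 genes differed (47.1%), with 22.6% higher in B and 24.5% higher in C. The 9.92% called at 0 hpf came from another fit, of 15 libraries and 21799 genes. The share at 0 hpf is therefore not on the same footing as the later shares. Of the 843 genes higher in B at 0 hpf, 658 were higher in B and 1 in C at 1 hpf, and 747 were higher in B and 1 in C at 1 dpf. Of the 1320 genes higher in C, 1201 were higher in C and 0 in B at 1 hpf, and 1288 were higher in C and 2 in B at 1 dpf. Their median log2 differences went from 0.65 at 0 hpf to 1.14 and 1.36 for the genes higher in B, and from -0.77 to -1.3 and -1.65 for those higher in C. At 3 dpf single genes were read, without a test against 0 hpf. The log2 difference of dazl was -2.88 at 1 dpf and -1.65 at 3 dpf (SE 0.26), and that of hspa5 LOC100135840 was -1.20 and 0.05 (SE 0.18, adjusted p = 0.859 at 3 dpf). That of itpr2 was 0.58 at 3 dpf (SE 0.33, adjusted p = 0.155), while hwa was still higher in C (-2.54, SE 0.39). These 4 genes were chosen after their values were seen.

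The difference between stages was tested directly, as an interaction of stage and section. Against 1 hpf, 175 genes passed (0.746%), and in all 175 the difference between B and C was the larger in size at 1 hpf. With fewer eggs the count was 4 to 30, and without the replicate block it was 0. Against 1 dpf, 3665 genes passed (15.6%), of which 3632 had the larger difference at 1 dpf and 33 at 0 hpf, and 1252 passed without the replicate block. The elongation factor eef2b LOC110530688 was at 145, 71.1 and 142 CPM in B and 107, 38.8 and 94.9 in C at 0 hpf, and at 96 and 78.4 against 13.2 and 14.5 at 1 hpf. Its C libraries were lower at 1 hpf than at 0 hpf, while the B libraries of both stages overlapped (interaction log2 -2.08, SE 0.51, adjusted p = 0.0373). The stages were sampled from different eggs and embryos.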

How the data were processed

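RNA was isolated with TRI Reagent and lithium chloride, per the labels' protocols, depleted of ribosomal RNA (RiboCop) and made into stranded libraries (NEBNext Ultra II Directional). The authors deposited whole-number read counts per gene. The submitters' processing notes name fastp 0.23.4, STAR 2.7.11, HTSeq 2.0.4 and DESeq2. No genome build or strand setting is given in the sources, so overlapping or antisense genes and duplicated copies may share reads. Of 60 labelled libraries, 55 were in the table, and those of 1 hpf replicate 2 were not analysed here. Of 23471 features, 23470 matched the RefSeq gene table (assembly USDA_OmykA_1.1), and names were the trout symbol (6557 features) or that of the zebrafish ortholog (7144).

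The tests used edgeR 4.0.16 under R 4.3.3 (quasi-likelihood F-test, TMM, filterByExpr with a minimum count of 10, Benjamini-Hochberg adjustment, threshold 0.05). The 15 libraries of 0 hpf shared 1 fit with section and replicate as terms, and log2 differences are fitted, with SE from the F statistic. Stages were compared in 1 fit of all 55 libraries, with replicate within stage as a term. DESeq2 1.42.0 was an alternative. CPM were computed from the counts with TMM scaling. Sections with the same number were cut from the same sample, per the series' design, and the pairing rests on that. The deviations of B and C from their group means correlated across genes at 0.67, 0.81 and 0.67 for the same number. Other pairs of numbers gave -0.72 to 0.55, of which 0.51 and 0.55 were those between replicates 1 and 3. The correlations mainly set replicate 2 apart. Replicates of a section differed beyond counting noise (chi-square per degree of freedom 4.1 to 17.38). Floors cover counting error only.

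The comparison, the members and the gene lists were chosen with earlier results of these data known, and some list patterns were corrected once the names in the table were seen. Genes are named by this rule: the 10 largest differences per direction among named genes with an adjusted p below 0.05, the same direction in 3 pairs and a mean of at least 5 CPM in the higher section; up to 4 list members with the smallest adjusted p; the 5 highest genes per section; the 3 largest stage differences per direction; and the 3 copy pairs with the largest gap. In each direction 2 genes without a name had larger differences than the last gene named. Other list members were added from the lists after their values were seen.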

Additional observations from a re-analysis of the deposited data

Results flagged for a closer look

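Genes whose difference between B and C at 0 hpf differed from that at a later stage, by the interaction of stage and section (edgeR's quasi-likelihood test, adjusted p below 0.05), were flagged for the difference between stages. They numbered 175 against 1 hpf and 3665 against 1 dpf. Positive values mean that B minus C was higher at 0 hpf.

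Against 1 hpf, the largest positive interactions were those of b4galt7, an enzyme of proteoglycan linkers (1.62, SE 0.35, adjusted p = 0.018), zgc:56235 (1.58, SE 0.31, adjusted p = 0.0122) and ralgapa1, a Ral GTPase activating subunit (1.46, SE 0.32, adjusted p = 0.018). The b4galt7 libraries were at 33.1, 46.1 and 29.2 CPM in B and 26.8, 41.9 and 27.8 in C at 0 hpf, and at 27.4 and 73.5 against 121 and 142 at 1 hpf. B minus C was thus 0.18 at 0 hpf and -1.44 at 1 hpf. The largest negative interactions were those of the elongation factor genes eef1da (-2.61, SE 0.55, adjusted p = 0.0166) and eef2b (-2.08) and of the ribosomal protein gene rs10 (-2.01, SE 0.40, adjusted p = 0.0122). The C libraries of eef1da at 1 hpf held 12 counts in all.

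Against 1 dpf, the largest positive interactions were those of the calcineurin regulator rcan2 (3.23, SE 0.59, adjusted p = 0.000172), the haem-binding repressor bach1b (2.84, SE 0.65, adjusted p = 0.00193) and tfg, of the export sites of the endoplasmic reticulum (2.78, SE 0.54, adjusted p = 0.000347). The B libraries of rcan2 at 1 dpf held 6 counts in all. For bach1b, B minus C was 0.32 at 0 hpf and -2.53 at 1 dpf.

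The other direction was led by the transcription factor genes foxq1a and klf2a and the cell cycle inhibitor cdkn1cb, each with a group of 3 counts or fewer, so no size is given. Of these, foxq1a (adjusted p = 0.00369) was at 47.6, 24.2 and 0.153 CPM in the B libraries of replicates 1, 2 and 3 at 1 dpf and had no count in C there. The klf2a libraries (adjusted p = 0.000107) were at 11.1, 10.9 and 0 CPM in B and 0 in each C library at 1 dpf. The cdkn1cb libraries (adjusted p = 0.000339) were at 23.2, 20.9 and 0.153 CPM in B at 1 dpf. In all 3 genes replicate 3 at 1 dpf was at or near 0 in B, unlike replicates 1 and 2.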

How the results depend on the processing

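Without the replicate block the count of genes differing between B and C was 0 (0 higher in B, 0 in C), with 15 libraries as with the 6 libraries of B and C, where 2652 and 2038 genes had an unadjusted p below 0.05. A 2-fold minimum left 508. The 6 libraries alone, with the block, gave 2983 genes, 1346 higher in B and 1637 in C. Leaving out a replicate or 1 library gave 123 to 3145 genes, 5 to 1505 higher in B and 118 to 1640 in C, and these include leaving out B of replicate 2 (3145), B of replicate 1 (725) or of replicate 3 (733), and C of replicate 1 (1383), 2 (834) or 3 (832), which were chosen after seeing the data. Library sizes (2204; 973 higher in B, 1231 in C), DESeq2's size factors (2170), no filter (2156) and DESeq2 (2540; 1156 and 1384) stayed within 1.5 times, and the share of calls higher in C ran from 54.5% to 61% among them. No scaling moved the median of all genes beyond 0.024, and with DESeq2 2049 of the 2163 genes were shared. Of the named genes, 128 of 130 with an adjusted p kept their side of the threshold with DESeq2, 70 of 133 without replicate 1, 118 of 134 without replicate 2, 34 of 133 without replicate 3 and 4 of 134 without the block. None of those with a value reversed in these settings.

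The count against 1 hpf was 0 without the block, 291 with library sizes, 425 with DESeq2 and 4 to 30 with a replicate left out. That against 1 dpf was 1252 without the block and 2361 to 2672 with a replicate left out. The counts between A and E and of differing steps from B to C and C to D (0) stayed within 1.5 times in each setting run. Replicate 2 had the lowest depth, where 3 counts were up to 1.283 CPM before TMM scaling.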
